A study of Mus musculus with 12 samples.

Results

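The question addressed here is how far the difference between Bcl6-deficient and wild-type invariant natural killer T (iNKT) cells of the thymus depends on the stage at which the cells are compared. It was put to all 12 RNA libraries of the 12 collected, 3 per group, by 1 contrast for every gene: the log2 fold change of Bcl6KO against WT at stage 1, minus the same fold change at stage 0. A positive contrast means that the Bcl6KO to WT ratio was larger at stage 1 than at stage 0, and a negative contrast that it was smaller. All mice were C57Bl/6J, euthanized at 4 to 5 weeks of age without treatment, and were either WT or CDCre;Bcl6F/F, in which a Cre transgene acts on floxed Bcl6 alleles. The cells bound the tetramer and carried the T cell receptor beta chain (TCRb). Stage 0 was sorted as CD24+ CD44- and stage 1 as CD24- CD44-, from pooled thymi of 4 to 7 mice. The labels give the transgene only by that name, without the promoter that drives it, and cells that escaped deletion are not separated from the rest. Nothing in the labels tells if a group's 3 libraries were made from different pools of mice, and a p-value here measures only how these libraries vary, which may in part be technical.

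BCL6 is a zinc finger repressor with a BTB domain, which recruits corepressors to DNA and is best known for directing germinal centre B cells and T follicular helper cells. iNKT cells recognise lipid antigens with a receptor of almost fixed sequence. They are selected on CD4 and CD8 double-positive thymocytes, pass from a CD24+ stage 0 to a CD24- stage 1, and then take on effector programs under the related factor PLZF (Zbtb16). In these sorted bulk samples, fewer cells of a type and less RNA per cell cannot be told apart.

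The level of Bcl6 itself (chr16:23965052-23988852, minus strand, on mouse build GRCm38 as all gene positions here) was 373, 217 and 275 CPM in the WT stage 0 libraries, 511, 657 and 652 in Bcl6KO stage 0, 8.77, 4.15 and 8.61 in WT stage 1 and 14.7, 56.05 and 25.2 in Bcl6KO stage 1, where CPM is the count divided by the scaled library size in units of 1e6. The libraries labelled Bcl6KO lay above the WT libraries at both stages, without overlap. Counts were made over the whole gene and the sources used here do not name the floxed exons, so these levels test neither deletion nor labelling. Bcl6 fell from stage 0 to stage 1 in both genotypes, by 5.32 ± 0.53 on the log2 scale in WT and by 4.25 ± 0.49 in Bcl6KO (edgeR's quasi-likelihood test, Benjamini-Hochberg adjusted p = 0.000961 and 0.00633). The contrast of Bcl6 was 1.08 ± 0.62 (adjusted p = 0.727). The sort marker that separates the gates followed the labelled stages in every library: Cd24a, the gate of stage 0, was 179.7, 149 and 171 CPM in the WT stage 0 libraries, 313, 261 and 154 in Bcl6KO stage 0, 2.99, 0.790 and 13.7 in WT stage 1 and 1.39, 1.79 and 0.799 in Bcl6KO stage 1. Its contrast was -2.66 ± 1.01 (adjusted p = 0.571). Cd44, absent from the surface in both gates, was low throughout, at 0.199 to 26.9 CPM over the 12 libraries.

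Library totals were 4129919 to 8038717. Genes with at least 1 count were fewest in Bcl6KO stage 0, at 14860 to 17734, and numbered 18417 to 21607 in WT stage 0, 19181 to 21144 in Bcl6KO stage 1 and 20953 to 22028 in WT stage 1. They also gave the largest share of their counts to 1 gene, the nuclear body gene Sp100, at 10.8%, 23.9% and 17.9%. That share was at most 5.03% in every other library. Of the 15704 genes tested, 619 had 0 counts in all 3 Bcl6KO stage 0 libraries, while 59 did so in Bcl6KO stage 1, 72 in WT stage 0 and 33 in WT stage 1. In WT stage 0, library 2 stood apart: its summed level of 10 tested markers of gamma-delta T cells was 1266 CPM, and the lowest sum of the group was 63.0 CPM. The same library had an Sp100 share of 0.0289% and 21607 genes detected. Libraries 1 and 3 of WT stage 0 had shares of 5.03% and 4.91% and 18417 and 19285 genes. The Bcl6KO libraries numbered 2 had the lowest Xist levels at both stages, 402 and 133 CPM, where the other 10 libraries had 4645 to 8645.

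**Figure D1:**
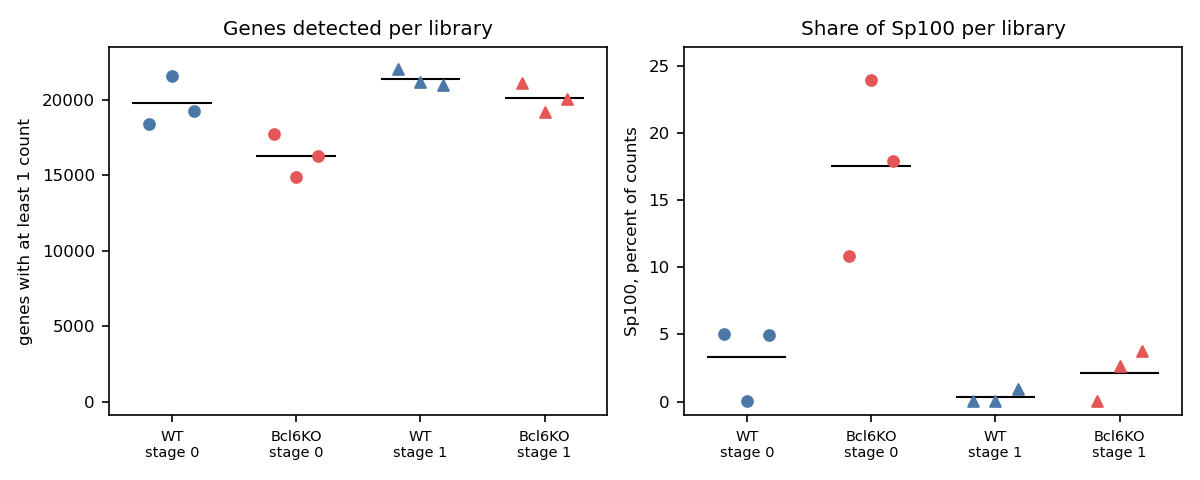
Genes with at least 1 count (left) and percent of counts from Sp100 (right) in each of the 12 libraries, by group, with a line at each group's mean. The Bcl6KO stage 0 libraries had 14860 to 17734 genes and 10.8% to 23.9% of their counts from Sp100.

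No gene passed the test of the contrast. With edgeR's quasi-likelihood test, 0 of 15704 genes (0.0%) had an adjusted p under 0.05, and the lowest adjusted p was 0.483. At an unadjusted p under 0.05 stood 1221 genes (7.78%), where 785 would be counted at that threshold if no gene differed. Of these, 825 (5.25% of all tested) had a positive contrast and 396 (2.52%) a negative one, while the sign alone was positive in 51.8% of all genes and negative in 48.2%. DESeq2 called 130 genes at an adjusted p under 0.05, 100 positive and 30 negative, and edgeR without a filter on low counts called 7, 6 positive and 1 negative. limma-voom called 0. Scaling by library totals only moved the median contrast of all genes from 0.05 to 0.46 and the split at an unadjusted p under 0.05 from 67.6% positive to 86.8% positive. The genes below are therefore described by their rank, their values in every library and their standard error, and none is a called difference between stages.

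The count depended on single libraries. Without library 1 of Bcl6KO stage 0, 1626 genes were positive and 634 negative at an unadjusted p under 0.05, and the lowest adjusted p was 0.0583. The negative count was 621 without library 3 of Bcl6KO stage 0 and 641 without library 2 of WT stage 0. Leaving out a library also lowers the number of libraries that the count filter asks for, so more genes entered these fits. The genotype comparisons that make up the contrast called 3 genes at stage 0 (0.0191%), Ccnd2, Camk1d and Igfbp4, and 0 genes (0.0%) at stage 1. Leaving out 1 library took the stage 0 count to between 0 and 133, the highest without library 1 of Bcl6KO stage 0.

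The positive and negative sides differed in shape. Among the 825 positive genes, Bcl6KO stage 0 was the lowest of the 4 groups in 714 and WT stage 1 in 111, 270 had 0 counts in every Bcl6KO stage 0 library, and the median gene had a mean level of 7.19 CPM. Among the 396 negative genes, Bcl6KO stage 0 was the highest group in 337, WT stage 0 was the lowest in 238 and Bcl6KO stage 1 in 151, and the median level was 42.8 CPM. The balance turned with abundance. Among the 11993 genes with a mean of at least 5 CPM, 487 (4.06%) were positive and 334 (2.78%) negative. Among the 4108 genes with a mean of at least 50 CPM, 102 (2.48%) were positive and 176 (4.28%) negative. Of those 102, WT stage 1 was lowest in 47 and Bcl6KO stage 0 in 55. The genotype difference was larger at stage 0 than at stage 1 in 722 of the 825 positive and 330 of the 396 negative genes. In 41 genes (0.261%) the Bcl6KO libraries lay wholly below WT at stage 0 and wholly above WT at stage 1, and 23 genes (0.146%) crossed in the other direction. Gene detection and the Sp100 share, given above, stood apart in the same Bcl6KO stage 0 libraries. With the Sp100 share as a covariate, a fit chosen after seeing the data, 673 genes were positive and 480 negative, and the part of gene detection in the result was not tested.

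Genes were named by rank on the contrast's p, 13 in each direction, from genes with a mean of at least 5 or 50 CPM. These 26 kept their sign and an unadjusted p under 0.05 in all 22 alternative fits, or in the 21 of them that tested Zbtb45, Boll and Sync, and 22 of the 26 had an adjusted p under 0.05 with DESeq2. They were chosen by this p and the alternatives refit the same counts, so their positions and their persistence in these fits are a description. They fell into 3 forms: genes whose decline from stage 0 to stage 1 in WT was smaller in Bcl6KO, genes that were low in Bcl6KO stage 0, and genes that were high in Bcl6KO stage 0. Ikzf3 and Ccr4, whose genotypes were separate at stage 1 and overlapped at stage 0, come last.

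**Figure D2:**
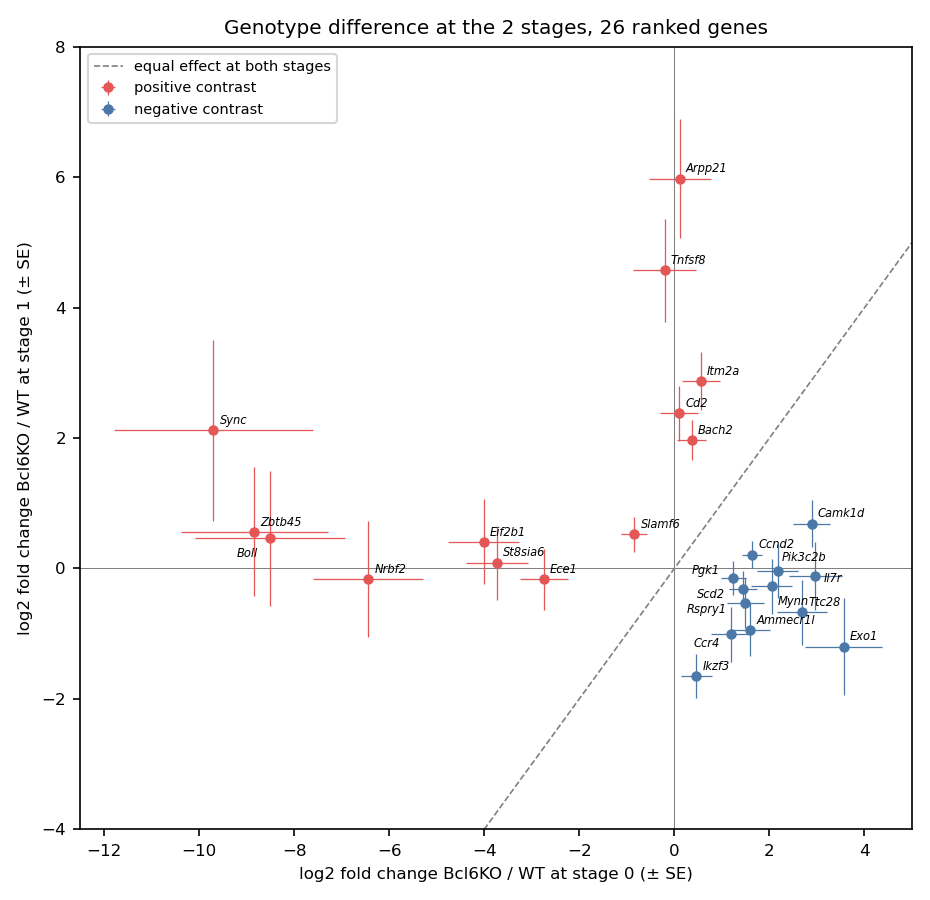
Log2 fold change of Bcl6KO against WT at stage 0 (x axis) and at stage 1 (y axis), ± SE, for the 26 ranked genes; the dashed line marks an equal difference at both stages. Arpp21 and Tnfsf8 lay near 0 at stage 0 and at 5.98 and 4.57 at stage 1, Il7r and Ccnd2 at 2.97 and 1.64 at stage 0 and near 0 at stage 1, and the positions of Zbtb45, Boll and Sync, with 0 counts in Bcl6KO stage 0, depend on the fit's prior count.

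The first form began with the lowest p of all genes, that of Arpp21 (chr9:112065091-112235938, minus strand), which encodes an RNA-binding phosphoprotein and is a gene of double-positive thymocytes. Its levels were 97.8, 267 and 387 CPM in the WT stage 0 libraries, 324, 407 and 79.5 in Bcl6KO stage 0, 0.797, 0.197 and 0.205 in WT stage 1 and 15.1, 49.7 and 15.8 in Bcl6KO stage 1. The genotypes overlapped at stage 0. At stage 1 every Bcl6KO library was above every WT library, which held at most 0.797 CPM. Arpp21 fell by 9.20 ± 1.00 on the log2 scale between the stages in WT (adjusted p = 0.000994), a size that is uncertain because the mean WT stage 1 level lies under the floor of 0.602 CPM that 3 counts per library give. In Bcl6KO its stage difference was -3.33 ± 0.72 (adjusted p = 0.0540). The contrast was 5.87 ± 1.12 (unadjusted p = 1.46e-04, adjusted p = 0.483).

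Tnfsf8 (chr4:63831308-63861347, minus strand), the gene of CD30 ligand, a cytokine of the tumour necrosis factor family, had the same form. It was 217, 144 and 98.2 CPM in the WT stage 0 libraries, 148, 157 and 92.9 in Bcl6KO stage 0, 4.38, 1.97 and 0.615 in WT stage 1 and 20.5, 116 and 31.5 in Bcl6KO stage 1. Only the stage 1 groups were separate, and library 2 of Bcl6KO stage 1 was the highest of its group. The contrast was 4.78 ± 1.01 (adjusted p = 0.483), made of genotype differences of -0.20 ± 0.66 at stage 0 and 4.57 ± 0.79 at stage 1. Cd2 (chr3:101275899-101287939, minus strand), an adhesion receptor of T cells, was 338, 198 and 309 CPM in the WT stage 0 libraries, 334, 239 and 331 in Bcl6KO stage 0, 30.5, 10.9 and 29.1 in WT stage 1 and 90.2, 166 and 110.4 in Bcl6KO stage 1. Itm2a (chrX:107397099-107403376, minus strand), a membrane protein gene switched on during positive selection in the thymus, was 553, 369.9 and 433 CPM in the WT stage 0 libraries, 771, 301 and 922 in Bcl6KO stage 0, 6.18, 10.1 and 7.38 in WT stage 1 and 44.9, 88.2 and 40.7 in Bcl6KO stage 1. In both genes the genotypes overlapped at stage 0 and Bcl6KO was above WT in every library at stage 1, with contrasts of 2.28 ± 0.57 and 2.32 ± 0.59 (adjusted p = 0.494 for each). Itm2a is X-linked. The Bcl6KO library with the lowest Xist had the highest Itm2a level of its group at stage 1, 88.2 CPM, and the lowest at stage 0, 301 CPM. The part of the Xist difference between libraries in the Itm2a result was not tested.

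The nuclear factor of this form was Bach2 (chr4:32238804-32586108, plus strand), a BTB leucine zipper repressor that restrains effector differentiation of T cells. Bach2 was 372, 268 and 635 CPM in the WT stage 0 libraries, 529.6, 539 and 567 in Bcl6KO stage 0, 57.99, 45.02 and 67.3 in WT stage 1 and 229, 227 and 212 in Bcl6KO stage 1. The 3 Bcl6KO stage 1 libraries lay within 212 to 229 CPM, between the WT stage 1 libraries and those of stage 0. Its contrast was 1.61 ± 0.43 (adjusted p = 0.499), and 5.40% of its exonic bases are shared with another gene, so its counts may include reads of that gene. Bach2 fell between the stages in WT, by 2.90 ± 0.32 (adjusted p = 0.00103), and its difference in Bcl6KO was -1.29 ± 0.30 (adjusted p = 0.0724).

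Slamf6 (chr1:171917515-171953170, plus strand) encodes Ly108, a homophilic receptor of the SLAM family that signals through the adaptor SAP during iNKT selection. It was 954, 653 and 1020 CPM in the WT stage 0 libraries, 522, 613 and 326 in Bcl6KO stage 0, 255, 205 and 203 in WT stage 1 and 347, 288 and 319 in Bcl6KO stage 1. Its order reversed: every Bcl6KO library was below WT at stage 0 and above WT at stage 1. The contrast of 1.37 ± 0.38 (adjusted p = 0.506) was made of -0.85 ± 0.27 at stage 0 and 0.52 ± 0.27 at stage 1. The gene of SAP, Sh2d1a, was 111, 108 and 65.7 CPM in the WT stage 0 libraries, 13.4, 11.4 and 35.2 in Bcl6KO stage 0, 49.4, 68.7 and 29.9 in WT stage 1 and 66.7, 18.1 and 53.1 in Bcl6KO stage 1. It was below WT in every library at stage 0 and overlapped WT at stage 1, with a contrast of 2.15 ± 0.86 (adjusted p = 0.575), and 26.6% of its exonic bases are shared with another gene.

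**Figure D3:**
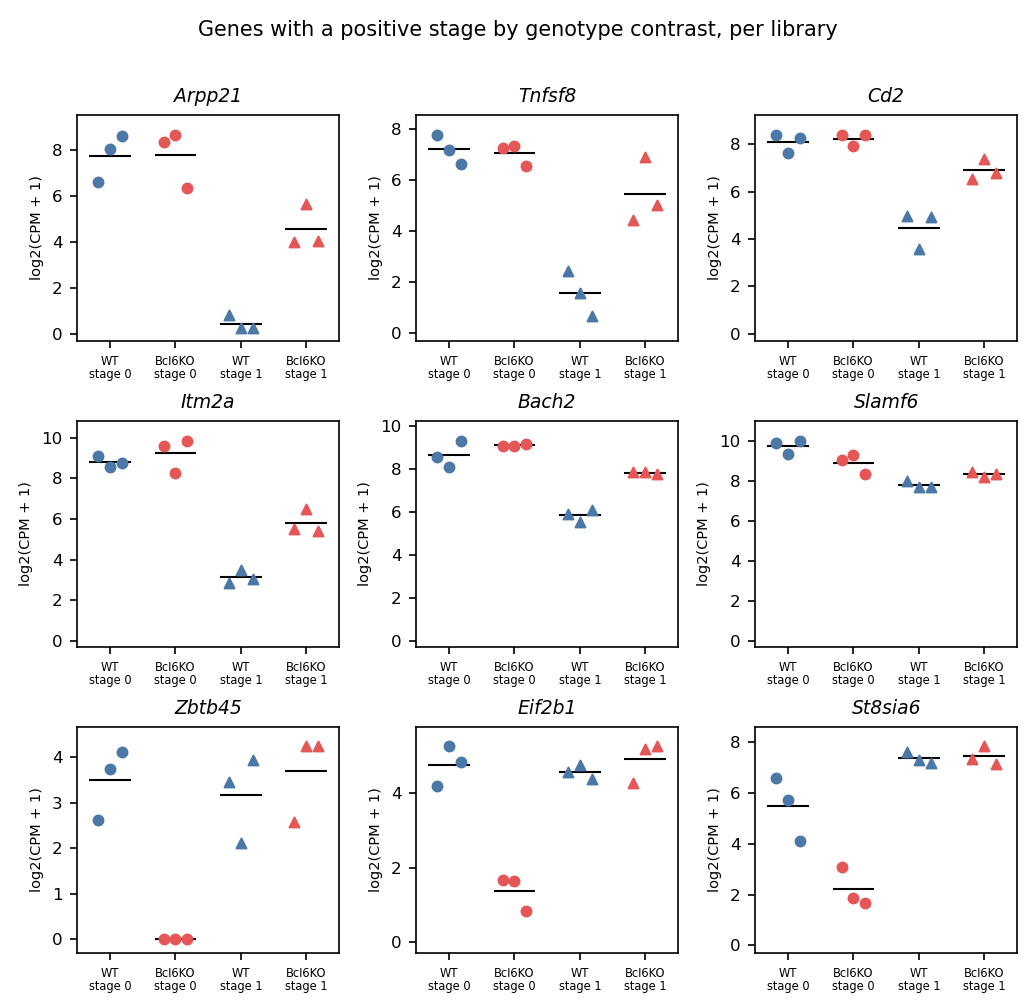
Level of 9 genes with a positive contrast as log2(CPM + 1) in each library, by group, with a line at each group's mean; the y axes differ. In Arpp21, Tnfsf8, Cd2, Itm2a and Bach2 the WT stage 1 libraries are lowest, whereas in Zbtb45, Eif2b1 and St8sia6 the Bcl6KO stage 0 libraries are lowest, Zbtb45 with 0 counts.

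The second form, genes low in Bcl6KO stage 0, was led by Zbtb45 (chr7:13003898-13010034, minus strand), a BTB zinc finger gene of BCL6's own family. It was 5.17, 12.4 and 16.3 CPM in the WT stage 0 libraries, 0, 0 and 0 in Bcl6KO stage 0, 9.96, 3.36 and 14.4 in WT stage 1 and 4.97, 17.9 and 17.97 in Bcl6KO stage 1. With 0 counts in every Bcl6KO stage 0 library, it was at least 19.3-fold lower there than in WT stage 0, against a floor of 3 counts per library averaged over the group, and its contrast was at least 4.83. Boll (chr1:55248658-55363469, minus strand), a germ cell RNA-binding gene of the DAZ family, was 14.5, 9.84 and 2.76 CPM in the WT stage 0 libraries, 0, 0 and 0 in Bcl6KO stage 0, 9.17, 5.53 and 2.46 in WT stage 1 and 7.35, 9.54 and 6.79 in Bcl6KO stage 1, at least 15.4-fold lower in Bcl6KO stage 0 than in WT stage 0. The fitted contrasts of both, 9.40 ± 1.81 and 8.98 ± 1.84, depend on the prior count of the fit. Sync, which encodes an intermediate filament protein, also had 0 counts in the Bcl6KO stage 0 libraries, but its WT stage 0 libraries ranged from 0.994 to 32.9 CPM and 27.3% of its exonic bases belong to another gene too.

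Genes of this form with counts in all 4 groups had moderate levels elsewhere. Eif2b1 (chr5:124570213-124579131, minus strand), a subunit of the exchange factor of the translation initiation factor eIF2, was 17.3, 37.6 and 27.9 CPM in the WT stage 0 libraries, 2.20, 2.09 and 0.788 in Bcl6KO stage 0, 22.9, 26.3 and 20.1 in WT stage 1 and 18.3, 35.97 and 37.7 in Bcl6KO stage 1. St8sia6 (chr2:13651021-13794064, minus strand), a sialyltransferase gene, was 94.4, 52.2 and 16.1 CPM in the WT stage 0 libraries, 7.39, 2.65 and 2.17 in Bcl6KO stage 0, 196, 159 and 144 in WT stage 1 and 160.3, 227 and 142 in Bcl6KO stage 1. Ece1 (chr4:137862237-137965229, plus strand), the endothelin-converting protease, was 94.4, 62.02 and 45.5 CPM in the WT stage 0 libraries, 7.99, 5.88 and 16.1 in Bcl6KO stage 0, 95.1, 117 and 104 in WT stage 1 and 119, 58.8 and 103 in Bcl6KO stage 1. In all 3 genes the genotypes were separate at stage 0 and overlapped at stage 1. Their contrasts were 4.42 ± 0.97, 3.82 ± 0.85 and 2.58 ± 0.68 (adjusted p = 0.483, 0.483 and 0.503). St8sia6 rose from stage 0 to stage 1 in Bcl6KO by 5.43 ± 0.70 on the log2 scale (adjusted p = 0.00633), where its WT stage difference was 1.61 ± 0.58 (adjusted p = 0.413). Nrbf2, a component of the autophagy lipid kinase complex, was 20.1, 10.8 and 60.2 CPM in the WT stage 0 libraries, 0.399, 0.569 and 0 in Bcl6KO stage 0, 12.2, 12.2 and 14.97 in WT stage 1 and 10.9, 13.7 and 10.6 in Bcl6KO stage 1, with a contrast of 6.29 ± 1.41. Its Bcl6KO stage 0 mean, 0.323 CPM, lies under the floor of 0.586 CPM, so the size of this contrast is uncertain. In 8 of the 13 ranked positive genes the Bcl6KO libraries were wholly below WT at stage 0 (7.95% of all genes tested), and in 6 they were wholly above WT at stage 1 (5.87%). The ranking used these values, so nothing is read from the 2 counts. The Bcl6KO stage 0 libraries are also those with the fewest genes detected. The part of that in the second form was not tested. Gene detection fell as the Sp100 share rose. The library with a share of 23.9% had 14860 genes, and those with 0.0283% to 0.0320% had 21144 to 22028. With the Sp100 share as a covariate, the contrasts of Eif2b1, St8sia6 and Ece1 were 4.41, 3.81 and 2.55 (edgeR's quasi-likelihood test, adjusted p = 0.559 for each). Since the share and gene detection went together, this fit cannot tell them apart.

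The third form held genes high in Bcl6KO stage 0. Ccnd2 (chr6:127125162-127152193, minus strand), the gene of cyclin D2, which drives entry into the cell cycle and is a known target of repression by BCL6, was 704, 696 and 759.9 CPM in the WT stage 0 libraries, 1740, 2355 and 2627 in Bcl6KO stage 0, 959, 1223 and 1160 in WT stage 1 and 1117, 1481 and 1270 in Bcl6KO stage 1. The Bcl6KO stage 0 libraries were above all 9 others, and the genotypes overlapped at stage 1. Ccnd2 was higher in Bcl6KO at stage 0 by 1.64 ± 0.21 on the log2 scale (adjusted p = 0.0340) and stood at 0.21 ± 0.20 at stage 1 (adjusted p = 1.00). The contrast was -1.43 ± 0.29 (adjusted p = 0.483), and 7.87% of its exonic bases are shared with another gene. Camk1d (chr2:5293457-5714515, minus strand), a calcium and calmodulin-dependent kinase, was 40.7, 57.7 and 70.5 CPM in the WT stage 0 libraries, 507, 461 and 280.0 in Bcl6KO stage 0, 81.7, 81.1 and 102 in WT stage 1 and 137, 203 and 86.05 in Bcl6KO stage 1. It was higher in Bcl6KO at stage 0 by 2.89 ± 0.39 (adjusted p = 0.0340), and its contrast was -2.20 ± 0.52 (adjusted p = 0.494). Both stage 0 calls were lost when libraries were scaled by totals only, with limma-voom, and with the Sp100 share as a covariate. In 7 of the 12 fits that left out 1 library no gene was called at stage 0. With the replicate block Ccnd2 was the only stage 0 call.

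Il7r (chr15:9505788-9530176, minus strand), the alpha chain of the interleukin-7 receptor, a survival receptor of thymocytes and another known BCL6 target, was 30.01, 120.1 and 28.3 CPM in the WT stage 0 libraries, 255, 818 and 324 in Bcl6KO stage 0, 518, 483 and 557 in WT stage 1 and 451, 551 and 432 in Bcl6KO stage 1. In WT the gene rose from stage 0 to stage 1 by 3.13 ± 0.57 on the log2 scale (adjusted p = 0.0320). In Bcl6KO it was already at 255 CPM or more at stage 0, above every WT stage 0 library, and its stage difference was 0.04 ± 0.52 (adjusted p = 0.984). The contrast was -3.09 ± 0.76 (adjusted p = 0.494). Igfbp4, the third gene called at stage 0, was not among the ranked genes and was looked up after its call was seen. It was 19.7, 18.5 and 23.03 CPM in the WT stage 0 libraries, 248, 249 and 277 in Bcl6KO stage 0, 105, 26.7 and 176 in WT stage 1 and 388, 473 and 496 in Bcl6KO stage 1, above WT without overlap at both stages, with a contrast of -1.52 ± 0.67 (adjusted p = 0.616).

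Of the ranked genes, 3 crossed in this direction, with every Bcl6KO library above WT at stage 0 and below WT at stage 1. Scd2 (chr19:44293674-44306864, plus strand), a stearoyl-CoA desaturase of lipid synthesis, was 240.1, 344 and 184 CPM in the WT stage 0 libraries, 527, 656 and 907 in Bcl6KO stage 0, 495, 465 and 463 in WT stage 1 and 411, 294 and 433 in Bcl6KO stage 1. Exo1 (chr1:175880581-175913489, plus strand), an exonuclease of DNA mismatch repair, was 8.15, 5.91 and 2.36 CPM in the WT stage 0 libraries, 123, 36.8 and 34.5 in Bcl6KO stage 0, 20.3, 26.7 and 22.97 in WT stage 1 and 17.5, 5.76 and 7.19 in Bcl6KO stage 1. Their contrasts were -1.77 ± 0.40 and -4.76 ± 1.08 (adjusted p = 0.483 for each). Ammecr1l was 50.1, 43.7 and 47.2 CPM in the WT stage 0 libraries, 96.2, 222 and 107 in Bcl6KO stage 0, 89.3, 70.9 and 87.6 in WT stage 1 and 39.9, 53.3 and 35.7 in Bcl6KO stage 1, with a contrast of -2.53 ± 0.58, and 23.2% of its exonic bases are shared with another gene. Crossing in this direction was seen in 0.146% of all genes tested, and the ranking used these values.

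Ttc28, a gene of a protein with tetratricopeptide repeats, was 15.9, 30.3 and 45.5 CPM in the WT stage 0 libraries, 92.2, 291 and 207 in Bcl6KO stage 0, 79.1, 126 and 167 in WT stage 1 and 71.7, 54.1 and 107 in Bcl6KO stage 1, with a contrast of -3.36 ± 0.73. It was lowest in WT stage 0, without overlap with Bcl6KO stage 0. Pgk1, the X-linked glycolytic phosphoglycerate kinase, was 236, 283 and 264 CPM in Bcl6KO stage 0 and 102 to 230.3 CPM in the other 9 libraries (contrast -1.39 ± 0.37). Pik3c2b, a class II phosphoinositide kinase, was 98.2, 223 and 117 CPM there and 28.5 to 41.4 CPM elsewhere (contrast -2.21 ± 0.60). Mynn, a BTB zinc finger gene, was 261, 136 and 127 CPM there and 33.5 to 75.2 CPM elsewhere (contrast -2.32 ± 0.60). Rspry1 was 187, 183 and 121 CPM there and 33.7 to 72.8 CPM elsewhere (contrast -2.02 ± 0.55). In each of these 4 genes every Bcl6KO stage 0 library was above the 9 others. In 11 of the 13 ranked negative genes the Bcl6KO libraries were wholly above WT at stage 0, where 4.67% of all genes tested were, and in 5 they were wholly below WT at stage 1, where 7.44% were. Nothing is read from these counts for the same reason as before.

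The remaining negative genes were separate between the genotypes at stage 1. Ikzf3 (chr11:98464902-98546031, minus strand), the gene of the lymphoid zinc finger factor Aiolos, was 889, 783 and 1133 CPM in the WT stage 0 libraries, 934, 1950 and 964 in Bcl6KO stage 0, 497, 779 and 871 in WT stage 1 and 225, 168 and 289 in Bcl6KO stage 1. All 3 Bcl6KO stage 1 libraries were below all others, and the genotypes overlapped at stage 0. Ikzf3 fell between the stages in Bcl6KO by 2.50 ± 0.35 on the log2 scale (adjusted p = 0.00818), its WT stage difference was -0.39 ± 0.33 (adjusted p = 0.865), and the contrast was -2.11 ± 0.47 (adjusted p = 0.483). Ccr4 (chr9:114490316-114504916, minus strand), a chemokine receptor used by thymocytes leaving the cortex, was 435, 396 and 211 CPM in the WT stage 0 libraries, 395, 752 and 1225 in Bcl6KO stage 0, 618, 501 and 849 in WT stage 1 and 259, 236 and 481 in Bcl6KO stage 1. The genotypes overlapped at stage 0 and Bcl6KO was below WT in every library at stage 1, with a contrast of -2.20 ± 0.60 (adjusted p = 0.506).

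**Figure D4:**
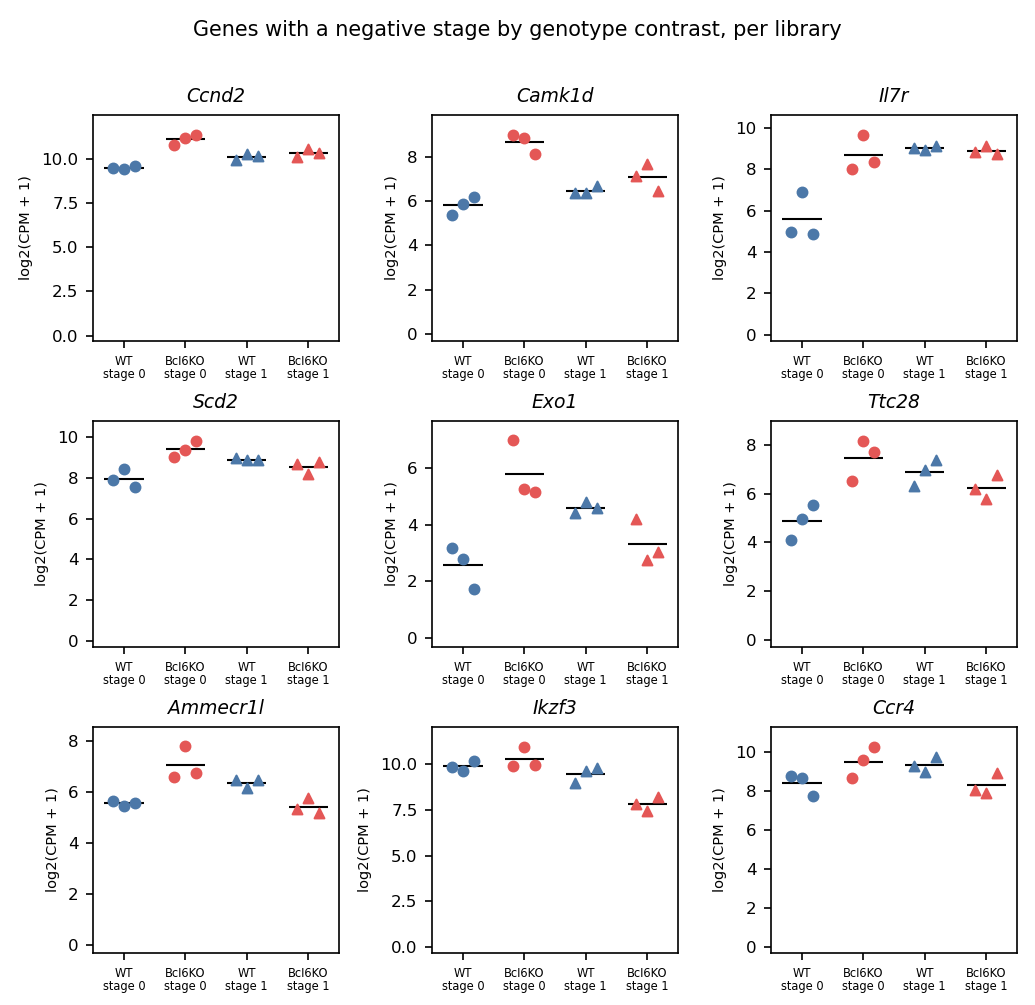
Level of 9 genes with a negative contrast as log2(CPM + 1) in each library, by group, with a line at each group's mean; the y axes differ. The Bcl6KO stage 0 libraries are highest in Ccnd2, Camk1d, Exo1 and Ammecr1l, Il7r is lowest in WT stage 0, and in Ikzf3 the Bcl6KO stage 1 libraries, 168 to 289 CPM, are the lowest.

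The promoter windows of the ranked genes were read for letters near those that BCL6 and STAT factors are known to prefer, since Bcl6, Bach2 and Il7r moved between the stages. RefSeq windows, from 250 bases before to 50 after a start on GRCm38.p6, were at hand for 22 of 30 genes (the 26 ranked genes, Bcl6, Zbtb16, Cd24a and Cd44). The 9-base motif TTCCTAGAA, a form reported for BCL6, was searched on both strands. It was in 0 of the 36 windows and in 0.415% of all 32544. The looser TTCNNNGAA, the palindrome of STAT factors, which contains the first motif, was in 7 of the 36 windows, from 6 genes, and in 8.33% of all windows. A window of each of Bcl6, Bach2 and Il7r that held it is shown, from 5′ to 3′ on the gene's strand, with each match in capitals:
Bcl6, chr16:23981234-23981533, minus strand: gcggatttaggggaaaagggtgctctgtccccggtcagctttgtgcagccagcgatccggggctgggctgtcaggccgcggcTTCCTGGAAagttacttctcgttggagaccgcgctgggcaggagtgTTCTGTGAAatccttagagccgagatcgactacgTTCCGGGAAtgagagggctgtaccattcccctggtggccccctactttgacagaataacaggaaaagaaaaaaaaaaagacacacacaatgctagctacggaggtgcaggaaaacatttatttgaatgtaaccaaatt
Bach2, chr4:32417185-32417484, plus strand: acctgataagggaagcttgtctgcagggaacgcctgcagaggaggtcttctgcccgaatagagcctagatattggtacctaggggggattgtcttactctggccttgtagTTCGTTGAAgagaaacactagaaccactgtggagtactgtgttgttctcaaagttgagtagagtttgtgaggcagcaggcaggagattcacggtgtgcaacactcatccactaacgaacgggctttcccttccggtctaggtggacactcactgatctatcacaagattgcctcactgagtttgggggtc
Il7r, chr15:9529827-9530126, minus strand: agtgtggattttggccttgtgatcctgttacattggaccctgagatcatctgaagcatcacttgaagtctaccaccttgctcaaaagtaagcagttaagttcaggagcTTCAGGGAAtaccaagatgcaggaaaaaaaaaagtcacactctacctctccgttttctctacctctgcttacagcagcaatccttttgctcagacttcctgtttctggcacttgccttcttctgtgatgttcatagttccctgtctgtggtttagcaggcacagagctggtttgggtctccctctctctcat
The Bcl6 window shown, at a start inside the gene, held 3 matches, TTCCTGGAA, TTCTGTGAA and TTCCGGGAA, and the other Bcl6 window with a match, chr16:23988803-23989102 on the minus strand, held 1, TTCTCAGAA. The windows of Bach2 and Il7r held 1 each, TTCGTTGAA and TTCAGGGAA. Bach2 and Il7r had contrasts of opposite sign, 1.61 and -3.09. A match says only that these letters are present.

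The lists below were described by their counts and their median contrast beside those of all genes, of which 5.25% were positive and 2.52% negative at an unadjusted p under 0.05, with a median of 0.05. No list had a member with an adjusted p under 0.05. Each median is followed in brackets by its range over the 22 alternative fits. Scaling by totals only raised the median of all genes by 0.41 and that of most lists with it.

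Genes of the BCL6 pathway came first. Among known BCL6-repressed genes, 1 of 20 tested members had an unadjusted p under 0.05 with a positive contrast and 3 with a negative one, with a median of -0.06 (-0.56 to 0.38), and 0.38 with library totals only. The negative ones were Ccnd2, Il7r and Runx3, a factor of cytotoxic T cells, which was 18.3 ± 14.7 CPM (SD, n = 3) in WT stage 0, 68.1 ± 68.8 in Bcl6KO stage 0, 23.5 ± 1.03 in Bcl6KO stage 1 and 103 ± 40.7 in WT stage 1. The list's medians for Bcl6KO against WT were 0.18 at stage 0 and -0.10 at stage 1. Its summed level, of which Ccnd2 and Il7r made up most of the gap between the genotypes at stage 0, was 3620 to 4634 CPM in Bcl6KO stage 0 and 2032 to 2185 in WT stage 0, and at stage 1 it was 3265 to 3735 in Bcl6KO and 3119 to 3734 in WT. Among BCL6 corepressors, 1 of 20 tested members had an unadjusted p under 0.05 with a positive contrast and 0 with a negative one, with a median of 0.15 (0.04 to 0.56). The member was Pcgf1, a polycomb ring finger gene with 0 counts in every Bcl6KO stage 0 library and in 1 WT stage 0 library. Ncor1, the corepressor that BCL6 binds through its BTB domain, was 891 ± 175 CPM (SD, n = 3) in WT stage 0, 922 ± 227 in Bcl6KO stage 0, 651 ± 114 in Bcl6KO stage 1 and 626 ± 124 in WT stage 1, with a contrast of 0.01 ± 0.36. In the BTB zinc finger list, which does not hold Mynn, 1 of 14 tested members had an unadjusted p under 0.05 with a positive contrast and 1 with a negative one. Zbtb7b, the gene of the CD4 lineage factor ThPOK, was 9.94, 5.91 and 2.17 CPM in the WT stage 0 libraries, 89.2, 129 and 61.2 in Bcl6KO stage 0, 54.2, 48.96 and 93.9 in WT stage 1 and 36.7, 164 and 153 in Bcl6KO stage 1, with a contrast of -3.11 ± 0.90 (adjusted p = 0.521). Zbtb16, the gene of PLZF, was 193, 209.7 and 96.8 CPM in the WT stage 0 libraries, 94.6, 8.72 and 48.2 in Bcl6KO stage 0, 409, 581 and 641 in WT stage 1 and 322, 305 and 440.4 in Bcl6KO stage 1, with a contrast of 1.11 ± 0.82 (adjusted p = 0.814).

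Among early iNKT regulators, 4 of 28 tested members had an unadjusted p under 0.05 with a positive contrast and 2 with a negative one, with a median of 0.47 (0.07 to 0.84). The contrast was positive in 18 and negative in 10, where 51.8% of all genes were positive, and the median was 0.07, close to that of all genes, without library 2 of Bcl6KO stage 1. Lef1, a factor of the TCF family that supports iNKT expansion, was 2849 ± 994 CPM (SD, n = 3) in WT stage 0, 2988 ± 510.0 in Bcl6KO stage 0, 1157 ± 394 in Bcl6KO stage 1 and 423 ± 179.7 in WT stage 1, with a contrast of 1.38 ± 0.50. Tcf7, the gene of the related TCF-1, was 474 ± 52.8 CPM (SD, n = 3) in WT stage 0, 692 ± 44.4 in Bcl6KO stage 0, 352 ± 138 in Bcl6KO stage 1 and 483 ± 144 in WT stage 1, with a contrast of -1.001 ± 0.42 (adjusted p = 0.544 and 0.596). The 2 related factors thus had contrasts of opposite sign. Among genes associated with T follicular helper cells, 4 of 20 tested members had an unadjusted p under 0.05 with a positive contrast and 1 with a negative one, with a median of 0.67 (0.36 to 1.00). The members were Tnfsf8, Slamf6, Sh2d1a, Lef1 and, on the negative side, Tcf7, and all of them except Tnfsf8 are shared with other lists here. Among the 9 SLAM receptors and adaptors tested, Slamf6 and Sh2d1a had an unadjusted p under 0.05.

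Genes of double-positive thymocytes and of egress went both ways. Among double-positive thymocyte genes, 3 of 17 tested members had an unadjusted p under 0.05 with a positive contrast and 2 with a negative one, with a median of -0.32 (-0.49 to 0.13), and 0.13 with library totals only. Themis, a T cell receptor signalling adaptor of selection, was 220.1 ± 93.02 CPM (SD, n = 3) in WT stage 0, 113 ± 61.9 in Bcl6KO stage 0, 168 ± 74.9 in Bcl6KO stage 1 and 68.96 ± 46.4 in WT stage 1, with a contrast of 2.25 ± 0.79. Rag2, the partner of Rag1 in the receptor recombinase, was 40.2, 105 and 3.35 CPM in the WT stage 0 libraries, 4.19, 17.3 and 12.01 in Bcl6KO stage 0, 0, 0 and 0 in WT stage 1 and 0.199, 0 and 3.19 in Bcl6KO stage 1. The negative members were Rag1 and Cd24a. The contrast of Rag1 was -4.14 ± 1.57 (adjusted p = 0.571), negative where that of Rag2, at least 3.06, was positive. Rag1 was 0.199, 0.199 and 0 CPM in Bcl6KO stage 1, under the floor, so the size of its contrast is uncertain. Rag2 had 1, 0 and 16 counts in the Bcl6KO stage 1 libraries, so the opposite signs rest on few counts. Among mature thymocyte and egress genes, 5 of 24 tested members had an unadjusted p under 0.05 with a positive contrast and 1 with a negative one, with a median of 0.22 (-0.18 to 0.78), and -0.18 without library 2 of WT stage 0. Dgka, a diacylglycerol kinase that damps receptor signalling, was 329 ± 54.4 CPM (SD, n = 3) in WT stage 0, 235 ± 11.2 in Bcl6KO stage 0, 197 ± 37.7 in Bcl6KO stage 1 and 114 ± 29.8 in WT stage 1, with a contrast of 1.27 ± 0.39. Bcl2, the survival gene, was 638 ± 323 CPM (SD, n = 3) in WT stage 0, 1124 ± 466 in Bcl6KO stage 0, 327 ± 142 in Bcl6KO stage 1 and 69.5 ± 22.9 in WT stage 1, with a contrast of 1.42 ± 0.64 (adjusted p = 0.631). Among BCL2 family genes, 2 of 16 tested members had an unadjusted p under 0.05 with a positive contrast and 1 with a negative one, with 12 positive and 4 negative contrasts. The negative member was Bcl2l11, the gene of the death mediator BIM, which was 53.9, 125 and 40.7 CPM in the WT stage 0 libraries, 224, 182 and 310.1 in Bcl6KO stage 0, 27.5, 66.7 and 35.9 in WT stage 1 and 37.9, 13.5 and 26.95 in Bcl6KO stage 1 (contrast -2.43 ± 0.75).

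Cell cycle genes leaned the other way. Of 42 tested cell cycle and replication genes, 36 had a negative contrast, against 48.2% of all genes. Among the 4108 genes with a mean of at least 50 CPM, 2302 were negative, with a median of -0.11. The median of the cell cycle list was -0.62 (-0.85 to -0.24). Of this list only Top2a, the replication topoisomerase, had an unadjusted p under 0.05, with a contrast of -1.25 ± 0.48 (adjusted p = 0.573). It was 56.3, 134 and 83.5 CPM in the WT stage 0 libraries, 458, 332 and 461 in Bcl6KO stage 0, 316, 169 and 309.7 in WT stage 1 and 427, 524 and 578 in Bcl6KO stage 1. The list's medians for Bcl6KO against WT were 1.16 at stage 0 and 0.62 at stage 1, and its summed level was 2000 to 2187 CPM in WT stage 0, 5055 to 7131 in Bcl6KO stage 0, 2282 to 4557 in WT stage 1 and 5131 to 8030 in Bcl6KO stage 1. The Bcl6KO libraries were above WT at both stages without overlap. Relative to the median of all genes, the list stayed negative in all 22 alternative fits, between -1.03 and -0.55. Cdk6, the kinase partner of the D cyclins, was 279.9, 252 and 306 CPM in the WT stage 0 libraries, 600.3, 344 and 585 in Bcl6KO stage 0, 489.8, 456 and 821 in WT stage 1 and 579, 556 and 560.0 in Bcl6KO stage 1, with a contrast of -0.93 ± 0.39. Of 70 cytosolic ribosomal protein genes, 57 had a negative contrast, and at an unadjusted p under 0.05 there was 1 positive and 3 negative. Their median was -0.38 (-0.53 to 0.06), and 0.06 with library totals only. Relative to all genes the median of the ribosomal genes too stayed negative in the 22 alternatives, between -0.63 and -0.24. Their genotype medians were -0.10 at stage 0 and -0.47 at stage 1.

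The medians of the effector lists moved with 1 library. Among NKT1 effector genes, 2 of 16 tested members had an unadjusted p under 0.05 with a positive contrast and 0 with a negative one, with a median of 1.91 (-1.04 to 2.90), or 0.94 with genes at 0 in a group set at their bound. Without library 2 of WT stage 0 the median was -1.04. Tbx21, the gene of T-bet, was 0, 12.4 and 0 CPM in the WT stage 0 libraries, 0, 0 and 0 in Bcl6KO stage 0, 19.7, 7.11 and 8.20 in WT stage 1 and 9.14, 1.99 and 9.18 in Bcl6KO stage 1. Its only stage 0 counts were in that library. The gamma-delta T cell markers moved likewise, with a median of 1.89 (-0.78 to 2.48), and -0.78 without that library. Tcrg-C2, their most abundant gene, was 31.01, 549 and 10.04 CPM in the WT stage 0 libraries, 7.59, 5.88 and 3.94 in Bcl6KO stage 0, 535, 1734 and 969 in WT stage 1 and 209, 224 and 237 in Bcl6KO stage 1. Among NKT2 effector genes, 3 of 16 tested members had an unadjusted p under 0.05 with a positive contrast and 3 with a negative one, with a median of 0.19 (-0.73 to 1.19). Il13 was 6.45 ± 6.60 CPM (SD, n = 3) in WT stage 0, 0.464 ± 0.503 in Bcl6KO stage 0, 69.8 ± 17.1 in Bcl6KO stage 1 and 35.9 ± 14.9 in WT stage 1, with a contrast of 4.70 ± 1.71, and Il4, the other type 2 cytokine gene of the list, was 16.8 ± 13.1 CPM (SD, n = 3) in WT stage 0, 1.52 ± 1.80 in Bcl6KO stage 0, 45.4 ± 27.9 in Bcl6KO stage 1 and 50.5 ± 8.96 in WT stage 1, with a contrast of 3.30 ± 1.22. The Bcl6KO stage 0 mean of Il13 lies under the floor of 0.586 CPM, so the size of its contrast is uncertain. The third positive member was Il4ra, and the negative ones were Ccr4, Atf6, a stress sensor of the endoplasmic reticulum, and Izumo1r, the gene of folate receptor 4, with contrasts of 2.39 ± 0.97, -2.20 ± 0.60, -1.43 ± 0.50 and -1.17 ± 0.49. Without library 2 of WT stage 0 the medians of NKT2 and NKT17 effector genes were -0.73 and -3.12, in place of 0.19 and -0.04. Among NKT17 effector genes, 1 of 10 tested members had an unadjusted p under 0.05 with a positive contrast and 2 with a negative one. The positive member was Cxcr6, a chemokine receptor, with a contrast of 3.94 ± 1.59. Tmem176b was 0.199, 1.77 and 1.57 CPM in the WT stage 0 libraries, 71.9, 0 and 0 in Bcl6KO stage 0, 1.39, 14.4 and 8.20 in WT stage 1 and 0.199, 0 and 0 in Bcl6KO stage 1. Its Bcl6KO stage 0 level came from 1 library, and the contrast was -10.77 ± 3.31. The Bcl6KO stage 1 means of Tmem176b and Il1r1, 0.0662 and 0.530 CPM, lie under the floor of 0.597 CPM. The sizes of the contrasts of both genes are therefore uncertain. Il1r1 was 0.398, 0.591 and 0.984 CPM in the WT stage 0 libraries, 0.200, 1.14 and 6.69 in Bcl6KO stage 0, 5.38, 23.3 and 10.3 in WT stage 1 and 0.795, 0.398 and 0.399 in Bcl6KO stage 1, with WT stage 1 the highest group and a contrast of -6.53 ± 1.86. The part of the cells with gamma-delta markers in these results was not tested beyond leaving out library 2 of WT stage 0. That library also had the lowest Sp100 share and the most genes detected of its group. Leaving it out cannot tell these traits apart.

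Interferon-stimulated genes were described because Sp100 is one of them. Among this list, 4 of 35 tested members had an unadjusted p under 0.05 with a positive contrast and 0 with a negative one, with a median of 0.50 (0.30 to 1.45), or 0.39 with genes at 0 in a group set at their bound. It was 1.45 without library 1 of Bcl6KO stage 0. Ifi27 was 101, 53.2 and 24.997 CPM in the WT stage 0 libraries, 13.6, 7.58 and 4.92 in Bcl6KO stage 0, 43.2, 75.2 and 30.97 in WT stage 1 and 46.9, 55.7 and 38.1 in Bcl6KO stage 1, with a contrast of 2.69 ± 0.88. It was low in the Bcl6KO stage 0 libraries, where Sp100 was highest. Oasl1, a member of the oligoadenylate synthetase family, was 6.56, 2.56 and 50.8 CPM in the WT stage 0 libraries, 0.200, 0 and 0 in Bcl6KO stage 0, 12.95, 4.74 and 4.51 in WT stage 1 and 13.1, 8.15 and 1.80 in Bcl6KO stage 1, again lowest in Bcl6KO stage 0, where a single count was seen.

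Apart from the gamma-delta markers above, markers of other cell types had mostly small levels and no call. None of the 13 B cell, 5 myeloid, 5 thymic stromal and 2 erythroid markers tested had an unadjusted p under 0.05. The summed B cell markers were 54.3 to 232 CPM in WT stage 0, 115 to 231 in Bcl6KO stage 0, 104 to 179 in WT stage 1 and 59.4 to 136 in Bcl6KO stage 1. The stromal sum reached 1567 CPM in 1 Bcl6KO stage 0 library, of which Pecam1, an endothelial adhesion gene that T cells also express, made up 1441 CPM. The myeloid sum was at most 139 CPM in any library and the erythroid sum at most 31.9 CPM. Of 16 T cell identity genes, Cd3e and Lat, both parts of the receptor signalling machinery, had an unadjusted p under 0.05, with contrasts of -1.002 ± 0.39 and -0.88 ± 0.41.

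**Figure D5:**
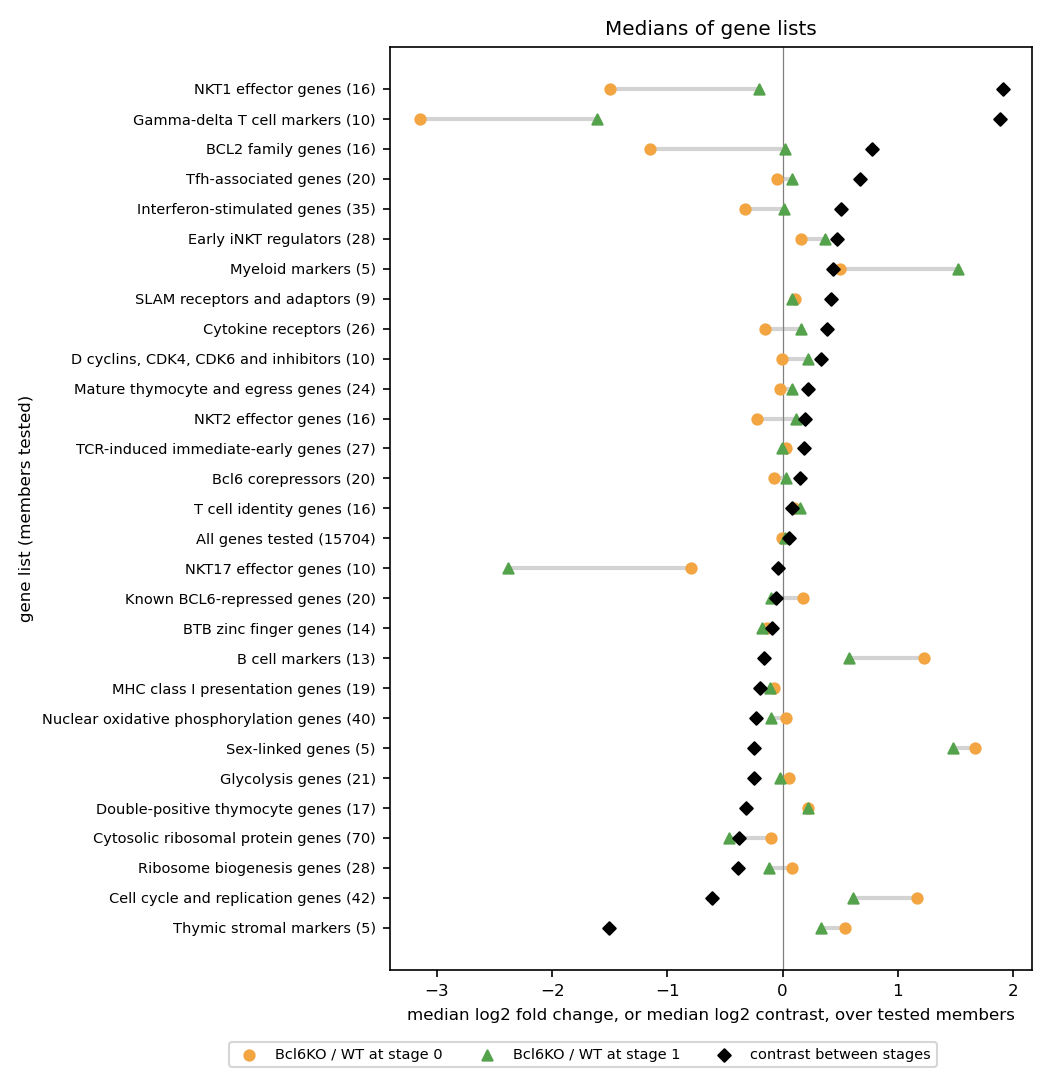
Median over the tested members of each gene list with at least 5 tested members (their number in brackets) of the log2 fold change of Bcl6KO against WT at stage 0 (circles) and stage 1 (triangles) and of the contrast (diamonds), with all genes for comparison. Cell cycle genes stand at 1.16, 0.62 and -0.62, and the NKT1 and gamma-delta lists, at 1.91 and 1.89, turned negative without 1 WT stage 0 library.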

How the data were processed

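RNA was sequenced in 12 libraries of sorted thymic iNKT cells, 3 in each of 4 groups taken from the genotype, stage and number in the sample titles. The values deposited by the authors are raw counts of reads for 48672 Ensembl gene IDs, with a file for each library. RNA was extracted with a QIAGEN kit and libraries made with a NuGEN kit for very low inputs, per the labels' protocols. The submitters' processing notes name bcl2fastq, TopHat2, Bowtie2 and DESeq with mm10. The sources used here give no versions, counting program, annotation or strand setting, so overlapping genes may share reads. Symbols, coordinates and the share of exonic bases covered by another gene came from GENCODE M21 on GRCm38, which matched 48312 IDs. Unmatched IDs held 0.195% to 0.366% of counts. Chromatin accessibility libraries were not analysed here.

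Tests used edgeR 4.0.16 (R 4.3.3). The 15704 genes that passed filterByExpr by group were fitted after TMM scaling (trimmed means of M-values) with 1 mean per group and robust quasi-likelihood dispersion, leaving 8 residual degrees of freedom. Tests were two-sided quasi-likelihood F-tests with Benjamini-Hochberg adjustment over all genes at 0.05, and were checked on simulated data. A standard error is the size of the log2 value divided by the square root of F. CPM used the TMM-scaled totals. Fold bounds used a floor of 3 counts per library (0.569 to 0.615 CPM), which covers counting error only, since the libraries carry no molecular identifiers. Library pairs within groups differed by more than sampling noise (chi-square per gene 27.6 to 170), so all 12 were kept.

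Named genes left out predicted models, pseudogenes, receptor gene segments, small noncoding RNAs, mitochondrial genes, genes on Y and Xist. They were the 8 lowest p-values in each direction with a mean of at least 5 CPM, the next 5 in each direction with at least 50 CPM, Bcl6, Zbtb16, Cd24a and Cd44, and the 2 lowest p-values of each of 29 lists, with the most abundant member for lists of other cell types. Other list members past an unadjusted p of 0.05, Ncor1, Igfbp4, Rag1, Il13, Il4 and Xist were chosen after their values were seen. The members, lists and rule were chosen with earlier results of these data known. Alternatives were RLE scaling, library totals only, Sp100 left out, no filter, a mean of at least 10 CPM, DESeq2 1.42.0, limma-voom (limma 3.58.1) with sample weights, non-robust dispersion, the replicate number as a block, each library left out, and the Sp100 share as a covariate. The last was chosen after seeing the data.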

Additional observations from a re-analysis of the deposited data

How the results depend on the processing

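The contrast called 0 genes in every alternative except DESeq2 (130) and no filter (7). The count of positive genes at an unadjusted p under 0.05, 825 with the default settings, was 1587 with no filter, 348 with a mean of at least 10 CPM and 430 with limma-voom, and 659 to 1626 when 1 library was left out. The negative count, 396, was 178 with library totals only and 714 with no filter, and 329 to 641 when 1 library was left out. Stage 0 calls, 3 by default, were 0 with library totals only, with limma-voom and with the Sp100 covariate, 103 with no filter and 950 with DESeq2, and 0 to 133 when 1 library was left out. Stage 1 calls, 0 by default, were 11 with no filter, 20 with DESeq2, 5 with limma-voom and 0 to 1 when 1 library was left out. With the replicate block, the contrast called 0 genes, stage 0 called 1 (Ccnd2) and stage 1 called 0; the correlations do not show pairing by number, since deviations of same-numbered libraries correlated at -0.0750 to 0.120 and 6 of 12 libraries correlated best with their own number. Both Bcl6KO libraries numbered 2 had the lowest Xist of their group. Both WT libraries numbered 2 had the highest summed gamma-delta markers of their group, 1266 and 4192 CPM, and the correlation of 0.120 was theirs. A shared source of same-numbered libraries within a genotype was not tested. Of the 75 named genes, 6 reversed: Ighm was 0.00289 with library totals only and -1.18 to 1.47 with 1 library left out (positive without library 3 of WT stage 0 or library 1 of Bcl6KO stage 0). Kdm5d was 0.0756 with limma-voom and -1.11 to 0.70 with 1 library left out (positive without library 2 of Bcl6KO stage 0). Itgam was 0.75 with limma-voom and -5.87 to 2.70 with 1 library left out (positive without library 3 of WT stage 1 or library 1 of Bcl6KO stage 0). With 1 library left out, Tbx21 was -0.77 to 7.21 and Tcrg-C2 -0.40 to 3.37, both negative without library 2 of WT stage 0, and Tyrobp was -2.45 to 4.28, negative without library 3 of Bcl6KO stage 1. The cause was not tested, except that leaving out a library or the filter changes which genes are tested. With 3 libraries per group and a common biological coefficient of variation of 0.835, a difference between stages that did not pass is not shown to be absent, and a gene with 0 counts is only below 0.569 to 0.615 CPM.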

Other observations

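Further gene groups were described in the same way, with the range over the 22 alternative fits in brackets after each median. Among cytokine receptors, 3 of 26 tested members had an unadjusted p under 0.05 with a positive contrast and 1 with a negative one, with a median contrast of 0.38 (-0.15 to 0.77), and -0.15 without library 2 of WT stage 0. Beside Il7r these were Il4ra, the interleukin-4 receptor chain, Tgfbr1, a receptor kinase for TGF-beta, and Il15ra. Il4ra was 113 ± 38.4 CPM (SD, n = 3) in WT stage 0, 74.2 ± 47.5 in Bcl6KO stage 0, 14.7 ± 9.76 in Bcl6KO stage 1 and 4.22 ± 0.919 in WT stage 1, with a contrast of 2.39 ± 0.97 (edgeR adjusted p = 0.578). Tgfbr1 was 70.98 ± 9.66 CPM (SD, n = 3) in WT stage 0, 34.2 ± 17.9 in Bcl6KO stage 0, 53.99 ± 17.5 in Bcl6KO stage 1 and 37.8 ± 4.30 in WT stage 1, with a contrast of 1.57 ± 0.70 (adjusted p = 0.627). Among genes induced at once by T cell receptor signals, 0 of 27 tested members had an unadjusted p under 0.05 with a positive contrast and 1 with a negative one, with a median of 0.19 (-0.11 to 0.64). The member was Jund, of which 52.6% of exonic bases are shared with another gene. Among D cyclins and their kinases and inhibitors, 0 of 10 tested members had an unadjusted p under 0.05 with a positive contrast and 2 with a negative one (Ccnd2 and Cdk6), with a median of 0.34 (-0.05 to 0.85), or 0.21 with genes at 0 in a group set at their bound. The median was -0.05 without library 3 of Bcl6KO stage 1 and 0.85 without library 2 of Bcl6KO stage 0.

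Among ribosome biogenesis genes, 1 of 28 tested members had an unadjusted p under 0.05 with a positive contrast and 0 with a negative one, with a median of -0.39 (-0.51 to -0.04). Among nuclear oxidative phosphorylation genes, 1 of 40 tested members had an unadjusted p under 0.05 with a positive contrast and 0 with a negative one, with a median of -0.23 (-0.41 to 0.21), and 0.21 with library totals only. Both groups held 1 positive gene at that threshold, Rrp9 for the small ribosomal subunit and Uqcrfs1 of respiratory complex III. In the glycolysis list, 1 of 21 tested members had an unadjusted p under 0.05 with a positive contrast and 2 with a negative one, with a median of -0.25 (-0.46 to 0.22), and 0.22 with library totals only. Its negative members were Pgk1 and Slc16a1, a lactate transporter that was 13.5, 45.5 and 21.5 CPM in the WT stage 0 libraries, 148, 119 and 72.9 in Bcl6KO stage 0, 52.8, 56.3 and 71.2 in WT stage 1 and 54.4, 111 and 62.3 in Bcl6KO stage 1. In the MHC class I presentation list, 0 of 19 tested members had an unadjusted p under 0.05 with a positive contrast and 1 with a negative one, with a median of -0.19 (-0.27 to 0.22), and 0.22 with library totals only. That member, H2-M3, which presents formylated peptides, was 27.03, 17.7 and 8.46 CPM in the WT stage 0 libraries, 69.7, 18.4 and 51.4 in Bcl6KO stage 0, 48.2, 38.3 and 45.9 in WT stage 1 and 32.4, 13.7 and 28.7 in Bcl6KO stage 1, below WT in every Bcl6KO library at stage 1 and overlapping at stage 0. None of the 5 sex-linked genes tested had an unadjusted p under 0.05 in edgeR's test.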
